A study of Bos taurus with 6 samples.

Results

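HBG, HBA, HBM and HBB, the haemoglobin chains, and AHSP, the chaperone of free alpha chains, were followed through 6 libraries of bovine fetal tissue. They were taken by symbol from the count table, and all 5 of the 5 were found among its 14179 symbols and passed the filter on low counts. Poly(A) RNA had been sequenced from liver, from forebrain and from the rumen, a forestomach chamber in which feed is fermented after birth. Each tissue had 2 libraries, named by tissue and replicate number (Liver 1, Liver 2 and so on). All libraries were labelled wild type, male and 90 days of fetal age. The fetuses were Holstein, taken at slaughter from cows, with a crown-rump length between 13 and 16 cm. The study collected 2 male and 2 female fetuses, so the 6 male libraries came from at most 2 fetuses, and which fetus stands behind a library is not labelled. P-values therefore measure the spread between samples, and this spread may be technical.

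Haemoglobin is a tetramer that joins a pair of alpha-like chains with a pair of beta-like chains, each holding a haem group. Cattle make embryonic beta-like chains first, then the fetal chain HBG, which the adult chain HBB replaces around birth. HBA encodes the main alpha chain, and HBM encodes mu globin, an alpha-like chain. AHSP binds alpha chains until a beta-like partner takes them up, which keeps free alpha chains from precipitating. The liver is a main site of red cell formation in the fetus, while the red cells it releases circulate through all tissues. Mammalian red cells lose their nucleus before release, and young red cells keep some RNA after that. In the RefSeq gene table HBE1, HBE4, HBB, HBE2 and HBG follow each other in this order in the beta-like cluster of chromosome 15, and HBM, HBA and HBQ1 lie together in the alpha-like cluster of chromosome 25, which also carries AHSP outside the cluster.

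Total counts ran from 10271024 in Forebrain 1 to 18528958 in Liver 2. Tissue labels matched their markers: all 12 tested hepatocyte genes were higher in liver than in either other tissue, all 9 tested neuronal genes were lower in liver than in forebrain, and all 11 tested genes of rumen epithelium and smooth muscle were lower in liver than in rumen. Liver 1 and Liver 2 stood apart in most globins, and main values that 1 library moves by over 1.5 times are also given without it. Levels are in CPM, counts scaled to 1000000 of the effective library size, and 3 counts in 1 library corresponded to between 0.193 and 0.244 CPM. Exact binomial intervals and floors given here cover counting error only. Intervals of log2 differences come from the fit and also hold the spread between libraries. HBG and HBB are close relatives, as are HBA and its neighbour HBA1, which was not analysed here. Reads of such relatives can be shared, so the counts of HBG, HBB and HBA are uncertain. Transcript lengths were not used here, so counts and CPM are compared between libraries and tissues and not as levels between genes.

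HBG, the fetal chain, held most of the globin counts of every library. It had 1466383 counts in Liver 1 and 583369 in Liver 2, which were 8.86% (95% exact binomial interval 8.85 to 8.87%) and 3.15% (3.14 to 3.16%) of all counts. By counts it ranked 1 among all genes in Liver 1 and 3 in Liver 2, and it still ranked 302 and 311 in Forebrain 1 and 2 and 236 and 274 in Rumen 1 and 2. Forebrain 1 and 2 had 5062 and 5919 HBG counts and Rumen 1 and 2 had 5981 and 4928, between 0.0413 and 0.0493% of a library. On the CPM scale this was 109165 and 37468 in Liver 1 and 2, 411.6 and 427 in Forebrain 1 and 2, and 458 and 385 in Rumen 1 and 2. Liver thus stood above the other tissues without overlap, the forebrain and rumen libraries lay at like levels, and the 2 liver libraries were 2.91-fold apart. The mean was 175-fold higher in liver than in forebrain (log2 fold change 7.45 ± 0.69 (SE); Benjamini-Hochberg adjusted p = 0.000293 in edgeR's quasi-likelihood test). It was 174-fold higher than in rumen (7.44 ± 0.69; adjusted p = 0.000549 by edgeR). Without Liver 1 these folds were 89.1 and 89.0, and without Liver 2 they were 260 and 259, still past the test.

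HBA, the main alpha chain, was the other globin among the genes with the most counts in liver. Its CPM was 29823 in Liver 1 and 13703 in Liver 2, 40.1 and 60.7 in Forebrain 1 and 2, and 79.1 and 62.8 in Rumen 1 and 2. Both liver libraries lay above all others, and HBA ranked 5 in Liver 1 and 7 in Liver 2 among all genes by counts. The liver mean was 432-fold above forebrain (log2 fold change 8.75 ± 0.62 (SE); adjusted p = 0.000119 by edgeR) and 307-fold above rumen (8.26 ± 0.60; adjusted p = 0.000296 by edgeR). Without Liver 1 the folds were 271 and 193, and without Liver 2 they were 589 and 420. The alpha-like chain HBM had the steepest gradient of the 5 genes. Its 32642 and 28333 counts in Liver 1 and 2 stood against 18 and 19 in Forebrain 1 and 2 and 32 and 22 in Rumen 1 and 2. In CPM the liver libraries were at 2430 and 1820 and the other 4 between 1.37 and 2.45, so the tissues did not overlap. HBM was 1491-fold higher in liver than in forebrain (log2 fold change 10.54 ± 0.40 (SE); adjusted p = 6.06e-05 by edgeR) and 1015-fold higher than in rumen (9.99 ± 0.39; adjusted p = 0.000222 by edgeR).

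HBB, the adult chain, had the fewest counts of the 4 chains in every library. It had 988 and 644 counts in Liver 1 and 2, 14 and 5 in Forebrain 1 and 2, and 9 and 10 in Rumen 1 and 2. In CPM that was 73.6 and 41.4 in liver, 1.14 and 0.361 in forebrain, and 0.689 and 0.780 in rumen. Liver again stood clear of the other tissues, while the rumen values lay between the 2 forebrain values. HBB was 76.8-fold higher in liver than in forebrain (log2 fold change 6.26 ± 0.64 (SE); adjusted p = 0.000426 by edgeR) and 77.3-fold higher than in rumen (6.27 ± 0.64; adjusted p = 0.000724 by edgeR). The forebrain contrast moved with its few counts, to 155-fold without Forebrain 1 and 50.2-fold without Forebrain 2. Every library held between 0.674 and 2.77 counts of HBB per 1000 of HBG.

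AHSP had 17356 counts in Liver 1, 12256 in Liver 2, 15 and 19 in Forebrain 1 and 2, and 22 and 28 in Rumen 1 and 2. Its CPM was 1292 and 787 in liver, 1.22 and 1.37 in forebrain, and 1.68 and 2.18 in rumen. Both liver libraries thus stood far above the other 4, in which AHSP had few counts. It was 796-fold higher in liver than in forebrain (log2 fold change 9.64 ± 0.43 (SE); adjusted p = 6.06e-05 by edgeR) and 535-fold higher than in rumen (9.06 ± 0.42; adjusted p = 0.000222 by edgeR).

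**Figure D1:**
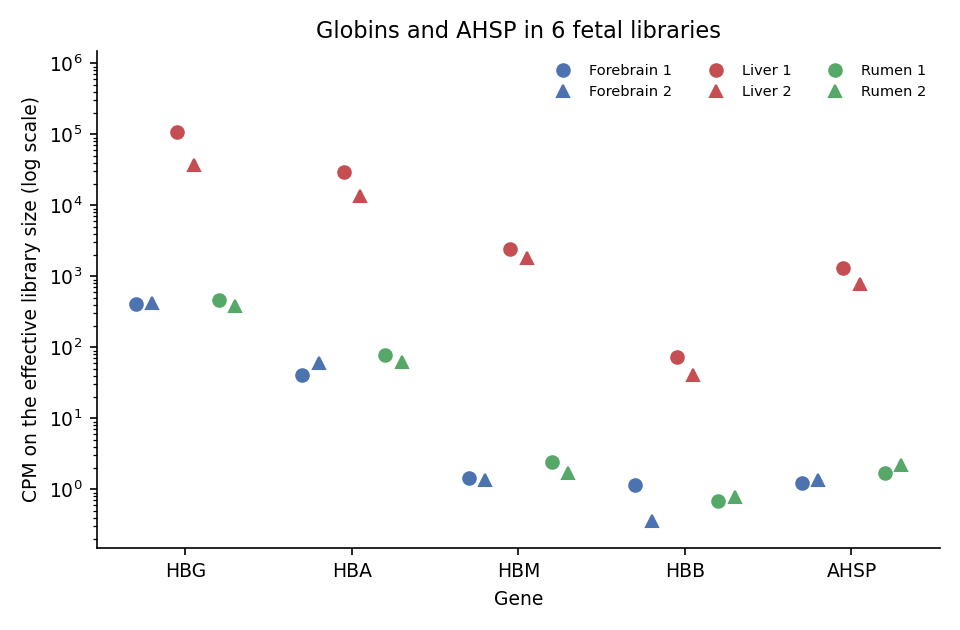
Each point is the level of 1 gene in 1 library, in CPM on a log axis, with colour for the tissue and shape for the replicate. The red liver points lie above all others for each gene, and Liver 1 (circle) lies above Liver 2 (triangle) in all 5, from 2430 against 1820 CPM for HBM to 109165 against 37468 CPM for HBG.

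All 5 genes passed the test as higher in liver than in forebrain, where 29.4% of the 11478 tested genes did and 55.3% passed in either direction. All 5 also passed as higher in liver than in rumen, where 20.3% did and 40.3% passed in either direction. In both comparisons both liver libraries lay above both others for all 5, as they did for 40.1% and 34.6% of tested genes. Over all genes 3377 were higher and 2976 lower in liver than in forebrain, and 2325 higher and 2304 lower than in rumen. With library totals and no scaling factor these splits were 2559 and 3946, and 1785 and 2980, with all 5 genes still called as higher. By fold against forebrain HBM ranked 156 and AHSP 195 among the tested genes, ahead of HBA at 264, HBG at 375 and HBB at 512. In bulk tissue, fewer red cells and less globin RNA per cell cannot be told apart.

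Between rumen and forebrain 0 of the 5 genes passed edgeR's test, against 39.3% of all tested genes (19.5% higher and 19.9% lower in rumen), with 0 at an unadjusted p under 0.05 and 0 by DESeq2. Rumen had an HBG level of 421 ± 51.7 CPM and forebrain one of 419 ± 11.01 CPM (SD, n = 2), and the interval of the log2 difference ran from -1.24 to 1.25. For HBB these were 0.735 ± 0.0648 and 0.750 ± 0.550 CPM (SD, n = 2), with an interval of -1.61 to 1.59. HBA, HBM and AHSP had both rumen libraries above both forebrain libraries, 3 of 5 genes where 39.7% of all tested genes did so. Their log2 differences, rumen minus forebrain, were 0.49 for HBA (95% interval -0.57 to 1.56), 0.55 for HBM (-0.24 to 1.35) and 0.57 for AHSP (-0.34 to 1.49). With 2 libraries per tissue the data are compatible with any difference within these intervals, so equal levels were not shown.

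The makeup of the globin RNA was compared next as counts of each gene per 1000 counts of HBG in the same library. Such ratios do not depend on the scaling between libraries. A ratio of counts is no ratio of molecules and is read only from library to library. HBA stood at 273 and 366 per 1000 in Liver 1 and 2, at 97.4 and 142 in Forebrain 1 and 2, and at 173 and 163 in Rumen 1 and 2. The liver ratios lay above the rest, by a mean of 2.69-fold against forebrain and 1.88-fold against rumen. HBM stood at 22.3 and 48.6 per 1000 in liver, 3.56 and 3.21 in forebrain, and 5.35 and 4.46 in rumen, so that it was 9.73-fold and 6.73-fold higher relative to HBG in liver. AHSP stood at 11.8 and 21.0 in liver, 2.96 and 3.21 in forebrain, and 3.68 and 5.68 in rumen, 5.11-fold and 3.45-fold higher in liver. HBB was mixed: its ratio was 0.674 and 1.10 in liver, 1.505 and 2.03 in rumen, and 2.77 and 0.845 in forebrain. The forebrain libraries overlapped with liver, while the liver ratio lay a mean of 2.03-fold below rumen without overlap. The rumen ratios rest on 9 and 10 HBB counts. The interval of the HBG share of HBG and HBB in Liver 2 lay within those of both rumen libraries. In Liver 1 this interval (99.928 to 99.937%) lay above that of Rumen 2 (99.628 to 99.903%) but overlapped with that of Rumen 1. An exact permutation test of 2 libraries against 2 cannot go below p = 0.333 (two-sided), the value it gave for HBA, HBM and AHSP in every pair of tissues. For HBB it gave p = 0.667 between liver and forebrain and p = 0.333 between liver and rumen (exact permutation test, two-sided). These 5 ratios, HBQ1 included, were compared over 3 pairs of tissues, and none can pass a threshold of 0.05.

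**Figure D2:**
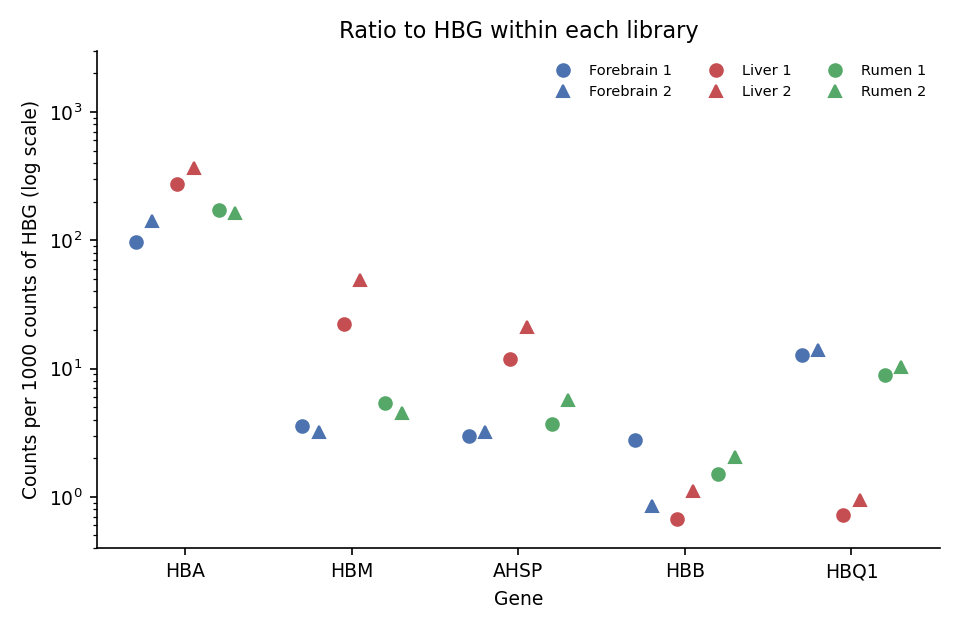
Points give the counts of a gene per 1000 counts of HBG in the same library, on a log axis, with colour for the tissue and shape for the replicate. HBA, HBM and AHSP are high in liver relative to HBG, and HBQ1, at 0.722 and 0.936 in liver, is low there and lies between 8.86 and 14.0 in the other 4 libraries.

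Alpha-like and beta-like counts shifted accordingly. HBG and HBB together made up 77.2% and 70.7% of the counts of the 4 chains in Liver 1 and 2, 90.9% and 87.3% in Forebrain 1 and 2, and 84.9% and 85.7% in Rumen 1 and 2. The lowest of these was in Liver 2 and the highest in Forebrain 1, with exact binomial intervals of 70.6 to 70.8% and 90.1 to 91.6%. HBM made up 7.53% (7.46 to 7.61%) and 11.7% (11.6 to 11.9%) of the HBA and HBM counts in Liver 1 and 2. The same share was 3.52% (2.10 to 5.51%) and 2.21% (1.34 to 3.43%) in forebrain, and 3.002% (2.06 to 4.21%) and 2.66% in Rumen 1 and 2. Both liver libraries were higher in this share beyond counting error, while the intervals of forebrain and rumen overlapped. AHSP per 1000 counts of HBA, its binding partner, was 43.3 and 57.4 in liver, 30.4 and 22.6 in forebrain, and 21.3 and 34.8 in rumen. AHSP as a share of AHSP and HBA had an interval of 4.09 to 4.21% in Liver 1, which lay within those of Forebrain 1 (1.66 to 4.82%) and Rumen 2 (2.24 to 4.82%). The higher AHSP per HBA in Liver 1 was thus not beyond counting error against these 2 libraries.

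Liver 1 had a higher level of all 5 genes than Liver 2, by unequal amounts. HBG was 2.91-fold higher in Liver 1, HBA 2.18-fold, HBB 1.78-fold, AHSP 1.64-fold and HBM 1.34-fold. The pairs of other tissues were closer for HBG, at 1.04-fold in forebrain and 1.19-fold in rumen, but not for HBB in forebrain, at 2.53-fold, or HBM in rumen, at 1.39-fold. The median log2 difference of the 5 genes was 0.83, and 5 of 5 were higher in Liver 1, against 49.1% of all tested genes with a median of 0. Differences of this size were common: 9.66% of tested genes had a higher ratio of Liver 1 to Liver 2 than HBG. For HBA this share was 14.5%, for HBB 20.8%, for AHSP 23.6% and for HBM 33.2%. The 4 chains summed to 11.5% of all counts in Liver 1 and 4.46% in Liver 2. In forebrain and rumen they summed to between 0.0483 and 0.0552%. The chains thus kept no fixed proportion between the liver libraries, and HBM per 1000 counts of HBA was 81.5 in Liver 1 and 133 in Liver 2. Other genes of the red cell lineage did not all follow. SLC4A1, the anion exchanger of the red cell membrane, was at 2608 CPM in Liver 1 and 530 CPM in Liver 2, 4.92-fold apart. HEMGN, a nuclear regulator of erythroid cells, was 6.24-fold higher in Liver 1 and TFRC, the transferrin receptor that imports iron for haem, 18.4-fold higher. KLF1, an activator of globin genes, lay the other way at 724 and 974 CPM, and so did UROS, an enzyme of haem synthesis, at 229 and 1244 CPM. Of the tested red cell membrane genes 12 of 14 were higher in Liver 1, of the erythroid transcription factors 8 of 11, and of the haem synthesis genes 7 of 15. Markers of other cell types differed too: 9 of 9 tested macrophage genes were higher in Liver 1, with a summed level of 1092 against 460 CPM, 6 of 6 granulocyte genes, 4 of 5 megakaryocyte genes and 9 of 11 endothelial genes. Of the hepatocyte genes 5 of 12 were higher in Liver 1, with summed levels of 247767 and 214738 CPM. The part of these cells in the globin difference was not tested, and 1 library against 1 allows no test.

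**Figure D3:**
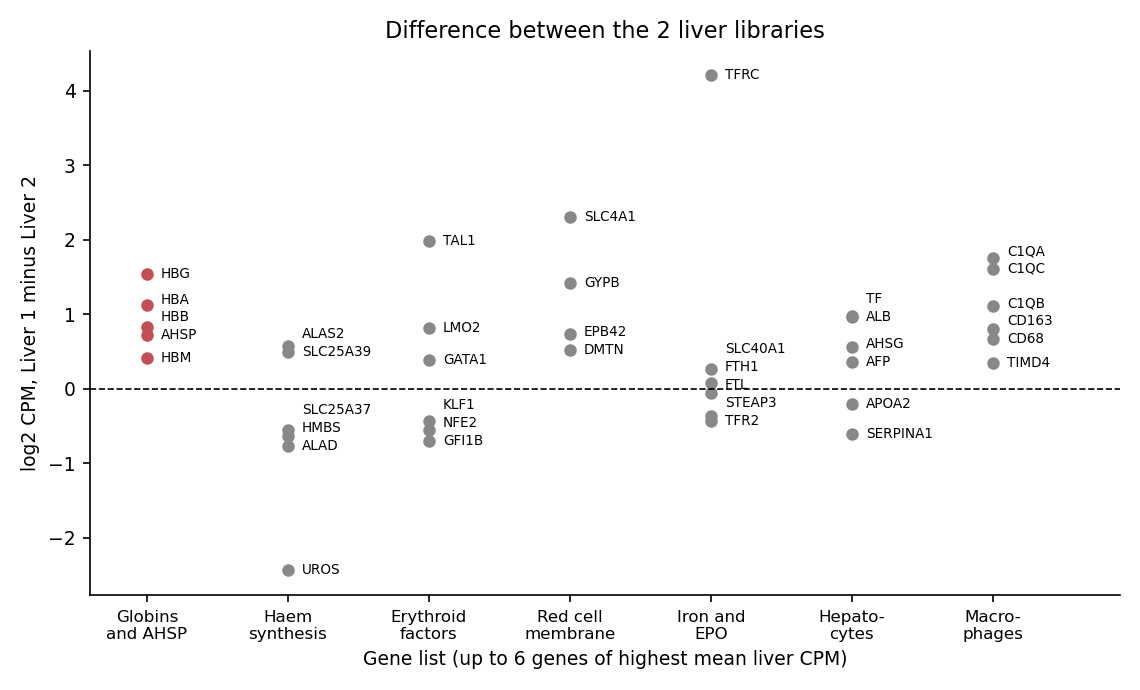
Each point is 1 gene, placed by log2 CPM in Liver 1 minus log2 CPM in Liver 2, for the globins with AHSP (red) and for 6 gene lists (grey, up to 6 genes of highest liver level each). The 5 red points lie above 0, from 0.42 for HBM to 1.54 for HBG, while haem synthesis genes lie on both sides, from -2.44 for UROS to 0.58 for ALAS2, and TFRC is highest at 4.204 in the list of iron uptake and erythropoietin (EPO) signalling.

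The traces in forebrain and rumen were set against the liver level of each gene. The forebrain mean was 1.30% of the liver mean for HBB, 0.572% for HBG, 0.232% for HBA, 0.125% for AHSP and 0.0667% for HBM. In rumen these were 1.28% for HBB, 0.574% for HBG, 0.326% for HBA, 0.186% for AHSP and 0.0980% for HBM. The order of the 5 genes was the same in both tissues. The forebrain value of HBB rests on 14 and 5 counts and was 0.628% without Forebrain 1 and 1.98% without Forebrain 2. The medians of 0.232% and 0.326% compare with 84.8% and 91.1% over the 11060 tested genes with counts in liver. Against Liver 2 alone the forebrain and rumen shares of HBG were 1.12% and 1.12%, and those of HBA 0.368% and 0.518%.

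Hepatocyte genes were uneven in forebrain and rumen. AHSG, the liver plasma protein fetuin-A, had 1328501 and 1049577 counts in Liver 1 and 2 but 0 in both forebrain libraries, and so had SERPINA1, AFP and APOA2. ALB, which encodes albumin, had 190 and 142 counts in forebrain, which was 0.0412% of its liver level, and the iron carrier TF had 21 and 19. In rumen AHSG had 11 and 30 counts, AFP 0 and 5, and TF and APOA2 none. All hepatocyte genes together summed to 104 and 137 CPM in Forebrain 1 and 2, and to 78.8 and 71.6 CPM in Rumen 1 and 2, with 6 and 4 of the 12 genes at 0 counts. Most of these sums was APOA1, the main protein of high-density lipoprotein, named after its values were seen. Its CPM was 3246 and 4157 in Liver 1 and 2, 85.1 and 121 in Forebrain 1 and 2, and 76.3 and 64.1 in Rumen 1 and 2. Its forebrain and rumen means were 2.78% and 1.90% of liver, above those of the 5 genes, while each of the other 11 hepatocyte genes was at 0.0695% or less in both tissues. The part of hepatocyte RNA in the globin traces was not tested.

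ALAS2, the red cell enzyme that starts haem synthesis, was present at a trace like those of the globins. Its 48357 and 37539 counts in liver stood against 75 and 101 in forebrain and 83 and 75 in rumen, which was 0.223% and 0.203% of the liver level. HEMGN, with 1 and 7 counts in forebrain and 8 and 8 in rumen, was at 0.0461% and 0.0972% of the liver mean, or 0.167% and 0.352% of Liver 2 alone. Several genes of red cell precursors had next to no counts outside liver. GATA1, the factor that directs red cell development, had 4059 and 3617 counts in liver, 0 and 2 in forebrain and 0 in both rumen libraries. KLF1 had 9719 and 15162 in liver, 4 and 0 in forebrain and 0 and 1 in rumen. GFI1B had 0 counts in all 4 libraries of forebrain and rumen, and SLC4A1 and EPB42 of the red cell membrane had between 0 and 2 counts in each. With GFI1B at 118 CPM on average in liver, a share as low as that of HBM would lie below 3 counts in 1 library. Its 0 counts thus do not set it apart from such a share. Others had more, such as GYPB of the membrane list with 16 and 7 counts in forebrain and 4 and 0 in rumen. Its forebrain mean was 0.169% of the liver mean, or 0.311% of Liver 2 alone. TAL1, an erythroid factor, had 42 and 27 counts in forebrain and 0 and 27 in rumen. The median over the red cell membrane list was 1.71% of liver in forebrain and 1.00% in rumen. Over the erythroid transcription factors it was 1.41% and 2.52%. Some members of the red cell and haem lists stood higher, such as DMTN at 133 CPM in forebrain. LMO2 was at 46.7 and 28.8 CPM in forebrain and rumen, and the mitochondrial carrier SLC25A39 at 92.2 and 87.8 CPM. Which cells made them was not tested. The 5 tested genes of megakaryocytes and platelets had a median of 0.489% of liver in forebrain and 0.883% in rumen. The integrin ITGB3 was highest in rumen at 10.4%, or 18.7% of Liver 2 alone. The platelet chemokine PF4 was at 0.112% and 0.583%. The part of blood held in the dissected tissue in these traces was not tested.

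**Figure D4:**
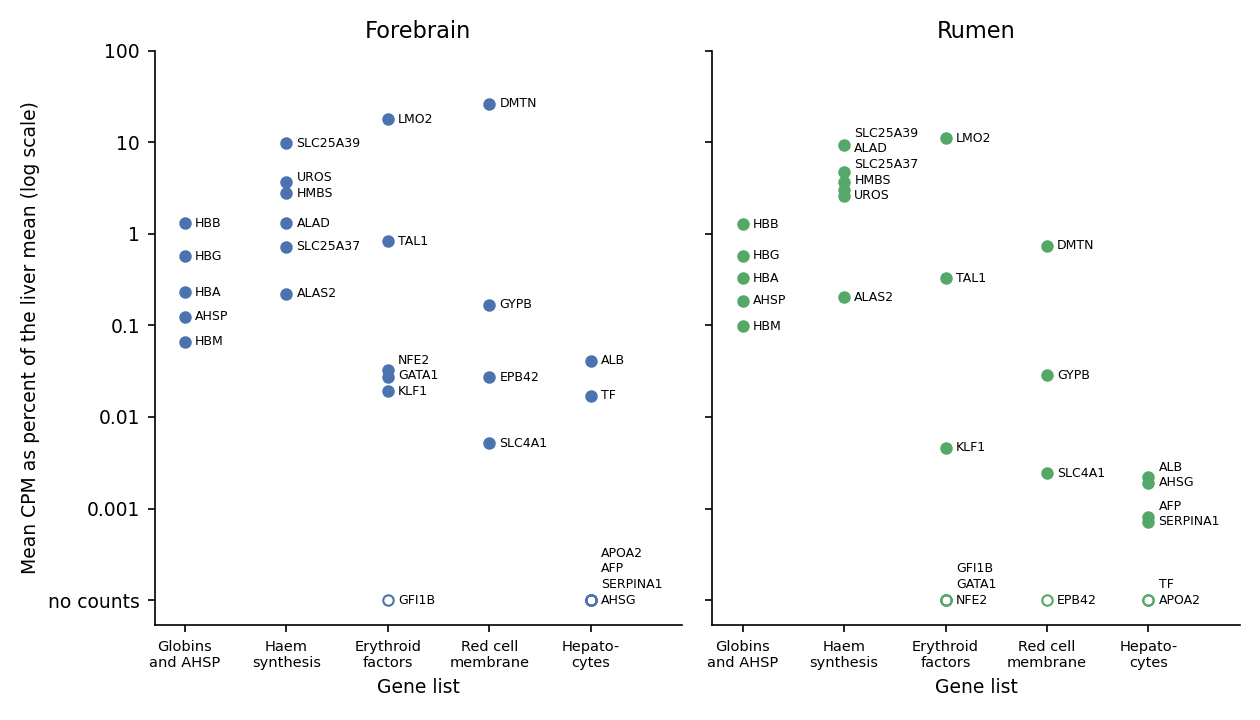
Each point is the mean CPM of a gene in forebrain (left) or rumen (right) as a percentage of its liver mean, on a log axis, with open points at the bottom for genes without counts. The globins and AHSP lie between 0.0667 and 1.30% in both tissues, while AHSG, SERPINA1, AFP and APOA2 have no counts in forebrain and GFI1B has none in either tissue.

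Among the other globins of the count table the embryonic beta-like chains were found in liver at trace levels. HBE4 had 103 and 35 counts in Liver 1 and 2, HBE1 had 38 and 17, and HBE2 had 6 and 0, while none had a count in forebrain or rumen. Liver was at least 41.5-fold higher than forebrain for HBE4 and at least 16.5-fold for HBE1, taking 3 counts over both forebrain libraries as the floor. With Liver 2 alone these bounds were 19.6-fold and 9.52-fold, and with Liver 1 alone 66.8-fold and 24.7-fold. Against rumen the bounds over both liver libraries were 41.1-fold for HBE4 and 16.4-fold for HBE1, and 19.4-fold and 9.42-fold with Liver 2 alone. All 3 were higher in Liver 1, as the 5 genes above were. HBQ1, the theta chain of the alpha-like cluster, had 1059 and 546 counts in liver, 64 and 83 in forebrain, and 53 and 51 in rumen. It was 10.2-fold higher in liver than in forebrain (log2 fold change 3.34 ± 0.46 (SE); adjusted p = 0.00146 by edgeR) and 14.1-fold higher than in rumen (3.82 ± 0.48; adjusted p = 0.00155 by edgeR), or 6.24-fold and 8.71-fold without Liver 1, and 14.0-fold and 19.6-fold without Liver 2. Its forebrain level was 9.83% of liver, or 16.0% of Liver 2 alone, and relative to HBG it was 16.2-fold lower in liver than in forebrain. A pseudogene lies within the span of HBQ1 in the RefSeq table, so its reads may be shared.

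The globins of other cells had other patterns. CYGB, which encodes cytoglobin, stood at 53.1 ± 6.85 CPM in forebrain, 38.2 ± 4.03 in rumen and 3.21 ± 0.641 in liver (SD, n = 2). It was lower in liver than in either (adjusted p = 0.00016 and 0.000455 by edgeR). MB, the oxygen store of muscle, had 95 and 82 counts in rumen and between 1 and 9 in each other library. NGB, the neuroglobin of neurons, had 22 and 36 counts in forebrain, 9 and 5 in rumen and 0 in liver. Among all tested genes 29.4% were higher and 25.9% lower in liver than in forebrain, and 20.3% higher and 20.1% lower than in rumen. Of the 6 tested genes in the list of other globins 3 were higher and 2 lower in liver than in forebrain, and 3 were higher and 3 lower than in rumen. Without either Forebrain library the first counts were 1 and 1, and without either Rumen library the second were 1 and 1.

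Genes that serve globin production were then counted from lists. In haem synthesis, 14 of 15 tested genes were higher in liver than in forebrain and 15 of 15 than in rumen, with 0 lower. ALAS2 was at 3005 CPM on average in liver and 6.69 in forebrain, SLC25A37, the importer of iron into mitochondria, at 2656 and 19.2, and ALAD, the enzyme that follows ALAS2, at 1410 and 18.3. The median gene of the list stood at 9.74% of its liver level in forebrain and 9.28% in rumen. Of the erythroid transcription factors, 10 of 11 were higher in liver than in either other tissue, among them KLF1 at 849, NFE2 at 480, TAL1 at 323 and GATA1 at 267 CPM. The TAL1 mean joins 516 CPM in Liver 1 and 131 CPM in Liver 2. Of the red cell membrane genes, 13 of 14 were higher in each comparison. In the list of iron uptake and erythropoietin signalling, 11 of 12 were higher and 1 lower in each, the lower gene, named after its values were seen, being the stem cell factor receptor KIT. Against rumen the number lower was 0 without Rumen 2. Among red cell cytosol genes, which include antioxidant enzymes, 11 of 15 were higher and 1 lower against forebrain, and 12 higher and 0 lower against rumen. The lower gene was GPX4, an enzyme against lipid peroxides, and without Forebrain 2 the number lower was 0. The antioxidant PRDX2 was at 1671 CPM in liver, 545 in forebrain and 308 in rumen. These counts compare with 29.4% of tested genes higher and 25.9% lower against forebrain, and 20.3% higher and 20.1% lower against rumen.

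Regulators known from the switch between fetal and adult globins were counted in the same way. Of 13 tested, 9 were higher and 1 lower in liver than in forebrain, where 29.4% of all tested genes were higher, and 4 were higher and 0 lower than in rumen, where 20.3% were. The count against rumen is near that background. Without Forebrain 1 or 2 the number higher was 4 and 3, and without either Rumen library the second was 2. BCL11A, a repressor of fetal globin in human red cells, was at 29.7 CPM in liver, 80.5 in forebrain and 36.1 in rumen, and was the lower gene (adjusted p = 0.00328 by edgeR). ZBTB7A, another such repressor, was 107 CPM in liver against 3.71 in forebrain and 27.6 in rumen, and passed in both comparisons (adjusted p = 0.000154 and 0.00443 by edgeR). IGF2BP3, an RNA-binding protein of fetal cells, was at 103, 42.4 and 72.4 CPM in liver, forebrain and rumen, and passed against forebrain only (adjusted p = 0.00511 and 0.138 by edgeR). The difference between those 2 contrasts was not tested.

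Most genes that clear free haemoglobin and haem were higher in liver. Over all tested genes 29.4% were higher and 25.9% lower in liver than in forebrain, and 20.3% higher and 20.1% lower than in rumen. Of 8 clearance genes tested, 6 were higher and 1 lower than in forebrain, and 5 higher and 0 lower than in rumen. The lower gene was the haem oxygenase HMOX2. The number lower was 0 without Forebrain 1 or 2 and 2 without Liver 1, and against rumen it was 1 without Liver 2. HPX, the plasma protein that binds haem, was at 694 CPM in liver, 0.366 in forebrain and 0 in rumen, HMOX1, the enzyme that breaks haem down, at 242, 2.98 and 8.09 CPM, and CD163, the macrophage receptor for haemoglobin bound to haptoglobin and also in the macrophage list, at 60.2, 0.153 and 2.16 CPM. Of the markers of other blood and vessel cells, 8 of 9 macrophage genes, 7 of 11 endothelial genes, 5 of 5 megakaryocyte genes and 4 of 6 granulocyte genes were higher in liver than in forebrain. Against rumen these were 9 of 9, 5 of 11, 5 of 5 and 4 of 6, with EMCN of the endothelium and S100A12 of granulocytes lower, beside 20.3% higher and 20.1% lower over all tested genes. The number of endothelial genes lower than in rumen was 0 without any 1 Forebrain or Rumen library and 2 without Liver 1. Without either Forebrain library the granulocyte count against forebrain was 2, and without either Rumen library the endothelial and megakaryocyte counts against rumen were 2 and 3. Endothelial genes higher than in rumen numbered 9 without Liver 2 and 3 without either Forebrain library.

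The genes most like the globins were found by the distance between profiles of log2 CPM over the 6 libraries, each centred on its own mean, to the mean profile of the 4 chains. The 10 nearest were CPN2, LOC510860, KLKB1, C9, GPR182, GATA4, DIO1, AADAC, CATHL2 and SERPINA10, with distances from 0.595 to 1.06 and Pearson correlations from 0.994 to 0.999. They had between 12.8 and 62.4 CPM in each liver library, such as CPN2 at 62.4 and 37.3 CPM in Liver 1 and 2. None had a count in forebrain, and in rumen GPR182 had 3 counts, GATA4 had 2 and the others none. HBA and HBG lay at 0.811 and 0.971 from that mean profile, AHSP at 1.53, HBB at 2.39 and HBM at 2.57. AHSP, HBB and HBM thus lay farther from the mean profile than these 10 genes. A prior count of 2 stands in for 0 counts in these profiles, so the distances of genes without counts outside liver depend on it.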

How the data were processed

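Counts per gene symbol were used as the authors deposited them, whole numbers without scaling, in 1 column per library for the 6 libraries, and 0 columns were left unmatched. HISAT2 2.0.5, featureCounts 1.5.0-p3 and edgeR 3.18.1 are listed in the submitters' processing notes. As to genome build, annotation and use of strand: not given in the sources used here. Reads of overlapping or antisense genes may be mixed, and how reads of near-identical globin copies were treated is not known. Total counts ran from 10271024 to 18528958. The filter filterByExpr kept 11478 genes. TMM factors over these genes ran from 0.812 to 1.20. edgeR 4.0.16 (R 4.3.3) fitted 1 mean per tissue over all 6 libraries, with 3 residual degrees of freedom, and Benjamini-Hochberg adjustment over all tested genes at a threshold of 0.05. Printed folds of single genes come from the fit and can differ from ratios of mean CPM. The SE is the log2 fold change over the root of the F statistic. Percentages of liver are ratios of mean CPM. Intervals are at 95%.

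The 5 genes, the 15 gene lists and the tests were chosen with earlier results of these data known. The genes named from a list were up to 6 with the highest mean CPM in liver, all other globins in the table, and the 10 genes nearest to the mean globin profile by Euclidean distance. Outside this rule KIT, GPX4, EMCN and APOA1 were named after their values were seen. Alternatives were RLE scaling, no scaling factor, library sizes without the 5 genes, DESeq2 1.42.0, no filter, a replicate block and leaving out each library. The fits were tested on simulated data with fewer changed genes than here and smaller folds than those of the 5 genes in liver. That test does not cover folds of this size. HBZ and HBA1 were not analysed here. Single values of some genes of the lists are not reported here. A RefSeq gene table (ARS-UCD2.0) served only for gene names and order, and listed 13929 of the 14179 symbols.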

Additional observations from a re-analysis of the deposited data

How the results depend on the processing

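In all 12 alternatives the 5 genes passed as higher in liver than in forebrain and in rumen, and 0 of 5 passed between rumen and forebrain. The liver minus forebrain log2 fold change of HBG ranged from 6.48 to 8.02 and that of HBM from 10.05 to 10.73. Differences near 0 changed sign without passing the test in any setting. Rumen minus forebrain, HBG was 0.0059 and became -0.053 with RLE scaling, -0.15 with library totals, -0.053 with DESeq2, -0.0024 without the filter, -0.024 with the replicate block, and ran from -0.13 without Rumen 1 to 0.15 without Rumen 2. HBB was -0.0085 and became 0.096 with the replicate block, and ran from -0.60 without Forebrain 2 to 1.03 without Forebrain 1, with 0.072 without Rumen 1.

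Counts over all genes moved when 1 library was left out, which also leaves fewer residual degrees of freedom. Genes higher in liver than forebrain numbered 3377, and 1877 to 4127 without 1 library, and those lower 2976, and 1764 to 3810. Against rumen 2325 were higher and 1013 to 3479 without 1 library, and 2304 lower and 1231 to 3391. Between rumen and forebrain 2235 were higher and 931 to 3482 without 1 library, and 2280 lower and 947 to 3659. With library totals and no factor the liver minus forebrain split was 2559 higher and 3946 lower, and that against rumen 1785 and 2980, as the median over all genes moved from 0.14 to -0.34 and from 0.064 to -0.23. The replicate numbers pair nothing in the labels, and deviations of same-numbered libraries correlated at 0.075 between forebrain and liver, -0.059 between forebrain and rumen and -0.0018 between liver and rumen. A replicate block gave 3055 higher and 2712 lower genes in liver against forebrain and 5 of the 5 genes called. The median log2 difference of the 5 genes between the liver libraries was 0.80 with RLE scaling and 0.78 with library totals. Shares per transcript length were not run, as only gene spans with introns were at hand.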
